A study of Danio rerio with 48 samples.

Results

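The high-dose response of whole adult zebrafish to cobalt was set against their high-dose response to nickel, probe by probe, as the cobalt effect (high minus control) minus the nickel effect (high minus control). The contrast uses 16 of the 48 arrays of the series, 4 in each of 4 groups. Its arrays were picked by their sample labels, with earlier results of these data known. Adult fish (6 to 9 months) were kept for 24 h in flow-through tanks with metal in the water, and RNA from whole ground fish was pooled and hybridised with the dye Cy3 to arrays that carry 1 colour. The cobalt high group was exposed to a measured 59.5 mg/L, and the nickel high group to 64.0 mg/L. The cobalt control group (0 mg/L) belonged to the cobalt series alone. The nickel control group (0 mg/L) consisted of the 4 nickel-labelled arrays of control pools that nickel shared with chromium, and each pool was carried by a further, chromium-labelled array. The strain, the sex of the fish, the metal salts, the number of fish in a pool and the number of tanks are not given in the labels. The p-values therefore speak only of the variation among these pools.

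Cobalt and nickel are neighbouring transition metals that dissolve as divalent cations, and their atomic masses are nearly equal, so concentrations in mg/L compare closely with molar ones. Both ions can displace iron in the prolyl hydroxylases that mark hypoxia-inducible factor for breakdown, and cobalt chloride is widely used to mimic hypoxia in cells. Cobalt is also the metal of vitamin B12, while nickel is known in fish for harm to gill and respiration. Whether the named transcripts belong to such pathways was not asked here, because the files pair no transcript with a gene name, and probes are therefore given by transcript ID. For the same reason the whole-organism samples were not checked against tissue markers.

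On these 16 arrays, 66.2% to 68.1% of the 43714 transcript probes lay above a log2 intensity of 5, the background limit, and pairs of replicates correlated between 0.984 and 0.992 across probes. Precision is limited by having 4 arrays in a group. The median standard error of the difference was 0.23 log2 units over the 19421 probes with a mean above log2 6. The array sets of the 2 metals were not alike in their control spots. The mean of 6 spike-in rows was 8.69 ± 0.09 in cobalt controls against 10.94 ± 0.21 in nickel controls (SD, n = 4 each). The number of probes within 0.01 of an array's highest value ran from 55 to 88 on nickel arrays and was 11 on 7 of the 8 cobalt arrays, while cobalt high replicate 1 had 52. The part of these features in the results was not tested. Of the 107 probes at that ceiling on any of the 16 arrays, 2 differed between the metals (1.87%). The share was 2.27% of all probes and 8.17% of the bright probes with a mean over log2 10. Whether the ceiling hid differences was not tested.

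The high-dose effects of the 2 metals, each measured from its own controls, differed at 994 probes of 768 transcripts. Each metal has its own set of arrays, so metal and array set cannot be told apart in these calls. The cobalt effect was the larger at 515 probes (1.18% of those tested) and the smaller at 479 (1.1%), by limma with Benjamini-Hochberg adjusted p under 0.05 over all 43714 probes, and together they were 2.27% of those tested. In all, 5309 probes passed an unadjusted p under 0.05. The differences were moderate: the median was 0.93 log2 units among probes with the larger value in cobalt and -0.95 among the others, and 225 (0.515% of those tested) and 208 (0.476%) probes reached 1 log2 unit, 0.991% together. Large differences were few and more often downward. Of the 994 probes, 36 were lower by at least 2 log2 units against 10 higher, and 13 against 3 at 3 units. These counts are of probes and not of transcripts. The 3 include both probes of ENSDART00000079972 (3.16 and 3.22). The 13 include both probes of ENSDART00000019431 (-4.39 and -3.89), of ENSDART00000091158 (-4.25 and -4.10) and of ENSDART00000082927 (-3.14 and -3.12). At the mid dose 23 of 456 differing probes were lower by at least 2 units against 14 higher. At the low dose it was 36 of 614 against 8, measured from the same controls. A downward difference can hold a fall with cobalt, a rise with nickel or a gap between the controls. Against their own controls, large effects were more often upward. Of 7554 probes called with high cobalt (3858 up, 3696 down), 112 rose by at least 2 log2 units and 72 fell by as much. Of 4230 called with high nickel (2358 up, 1872 down), 57 rose and 1 fell by as much. In RNA of whole fish, fewer cells of a type and less RNA per cell cannot be told apart. Without the 3 cobalt arrays whose descriptions end in letters of unstated meaning (control replicate 4, high replicates 1 and 4), an alternative added after seeing the data, 590 probes passed, of which 521 were among the 994. With the chromium-labelled arrays of the same control pools in place of the nickel-labelled ones, 1657 probes passed; 760 probes, 386 higher and 374 lower, were called in the same direction with either set, which is 76.5% of the former list and 45.9% of the latter.

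**Figure D1:**
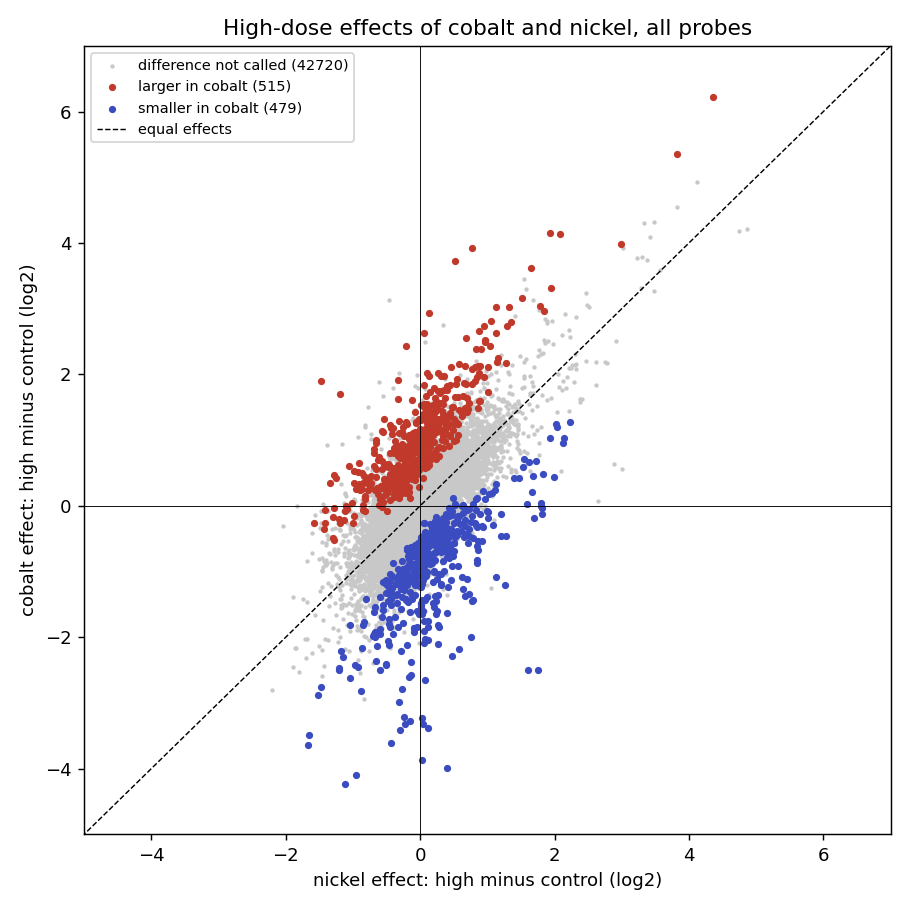
Cobalt effect (vertical, log2) against nickel effect (horizontal, log2) at the high dose for all 43714 probes, each point a probe. Red points mark the 515 probes with the larger value in cobalt, blue points the 479 with the smaller, and most of them lie near 0 on the nickel axis while they spread along the cobalt axis.

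The share of probes that differed was higher among brighter probes. Of the 3392 probes with a mean over log2 10, 277 differed, or 8.17%. The share was 5.03% between log2 8 and 10, 2.65% between 6 and 8 and 0.613% under 6. Among the 7035 probes at or below the background limit on all 16 arrays 1 differed. Where a transcript had a second probe, that probe agreed in sign at 957 of 988 differing probes and was itself called in the same direction at 452, and 0 were called in the opposite direction. Both probes of 226 transcripts passed. Each pair was measured on the same RNA, so this describes the probes and not a repeat of the experiment. The matching shares over all pairs of probes were not computed, so these counts are not read as particular to the differing probes.

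The differing probes were then divided by what each metal did against its own control. In the fit of all 48 arrays, high cobalt changed 7554 probes (17.3% of those tested), raising 3858 (8.83%) and lowering 3696 (8.45%). High nickel changed 4230 (9.68%), raising 2358 (5.39%) and lowering 1872 (4.28%). Most differences came with a cobalt call and no nickel call: 642 of the 994 probes, or 64.6%, were of this kind, as were 4798 of all 43714. Cobalt had more calls than nickel over all probes, so the 64.6% is not read as particular to the differing probes. Among the 642, 320 rose with cobalt, with a median cobalt effect of 0.91 and a median nickel effect of -0.01 log2 units. The other 322 fell, with medians of -0.94 and 0.05. The reverse, a nickel call and no cobalt call, held at 154 probes. Of these, 87 fell with nickel (median nickel effect -0.61, median cobalt effect 0.24) and 67 rose with nickel (0.79 and -0.15). A call with a single metal mostly came without a call of the difference: 4798 probes were called with cobalt and not with nickel, and 1474 with nickel and not with cobalt, of which 642 (13.4%) and 154 (10.4%) passed the test of the difference.

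Where both metals moved a probe the same way, few of the differences in size passed the test. Of 2713 probes called in the same direction at both high doses, 130 passed, or 4.79% against 2.27% of all probes, and for the rest equal sizes are not shown. In 115 of the 130 the cobalt effect was the larger in size. The matching share of all 2713 was not computed, so this is not read as particular to the 130. The 69 probes that rose further with cobalt had a median effect of 1.90 with cobalt and 0.82 with nickel. The 46 that fell further with cobalt had medians of -1.80 and -0.66. Opposite responses were few: 43 probes rose with 1 metal and fell with the other. Calls of opposite sign in 1 fit place a probe among the differing ones almost by construction, so that all 43 are there is no separate result. Cobalt raised and nickel lowered 22 of them, while 21 went the other way. The remaining 25 differing probes were called with neither metal.

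The largest difference of either sign under the naming rule was that of ENSDART00000019431_1, a probe that cobalt lowered to near background. Its 4 cobalt high arrays read 4.92, 5.56, 5.25 and 6.02 and its 4 cobalt controls 10.03, 8.97, 9.48 and 9.22. Nickel high arrays read 9.34, 8.62, 9.51 and 9.18, and nickel controls 8.26, 8.79, 8.86 and 9.12. The cobalt groups lay far apart, whereas the nickel groups overlapped. The cobalt effect was -3.99 ± 0.26 and the nickel effect 0.41 ± 0.26 (log2, SE), the latter with a limma adjusted p of 0.435. Their difference was -4.39 ± 0.37 (SE), 95% interval -5.13 to -3.65, limma adjusted p 1.16e-10. Of the cobalt high arrays, 1 lay below the background limit. The other probe of the transcript differed by -3.89.

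ENSDART00000091158_2 responded to the metals in opposite directions. With cobalt it went from 11.73, 10.99, 11.81 and 10.95 in controls to 9.09, 8.61, 8.98 and 8.82. With nickel it went from 11.57, 11.12, 11.03 and 10.23 to 13.01, 12.41, 12.97 and 12.60. The control ranges of the 2 series overlapped, and all exposed arrays lay outside the range of their own controls. The fall with cobalt was 5.63-fold and the rise with nickel 3.39-fold, and the difference was -4.25 ± 0.40 log2 units (SE, limma adjusted p 1.71e-09). The transcript's dimmer probe gave -2.50 with cobalt and 1.61 with nickel.

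The largest difference in the other direction was also one of opposite responses, and here the controls differed. ENSDART00000083532_2 read 6.03, 6.21, 5.33 and 5.68 in cobalt controls and 8.40, 8.58, 6.78 and 7.11 at high cobalt. In nickel controls it read 7.35, 7.74, 7.26 and 7.87, and at high nickel 5.94, 5.76, 6.89 and 5.71. Each metal thus brought the probe toward the level of the other series' controls, and neither metal's exposed arrays overlapped with its own controls. The cobalt effect was 1.90 ± 0.31, the nickel effect -1.48 ± 0.31 and their difference 3.38 ± 0.44 (log2, SE, limma adjusted p 2.93e-06). Cobalt controls lay below nickel controls by 1.74 ± 0.31 log2 units in size (-1.74, adjusted p 0.000133). Its other probe gave 1.70 with cobalt and -1.19 with nickel.

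**Figure D2:**
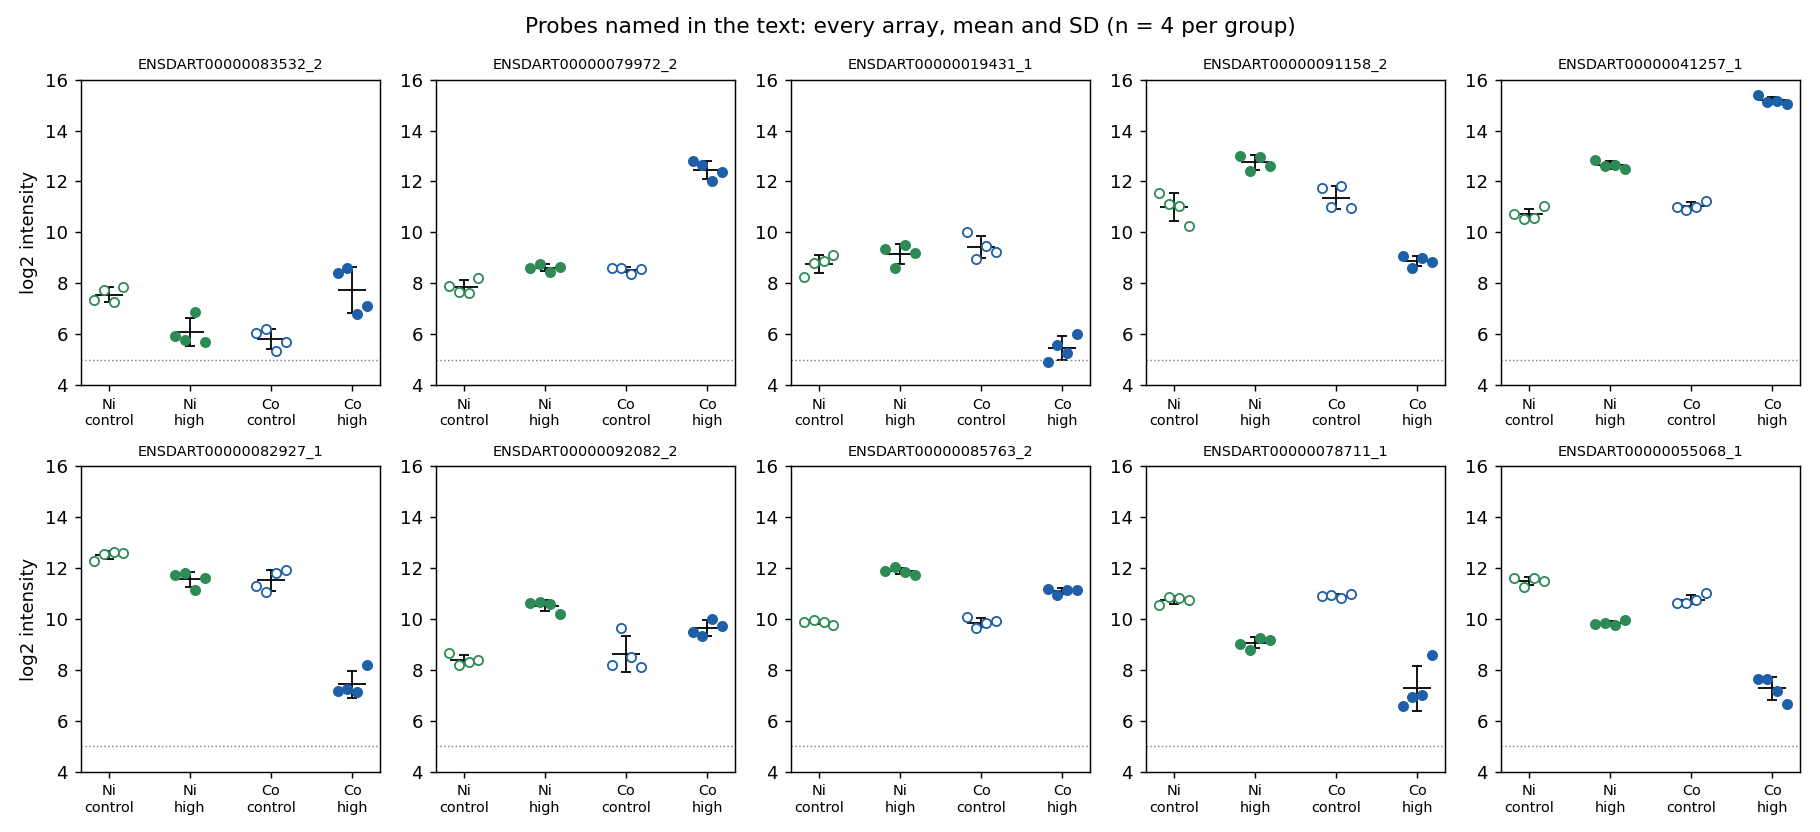
Log2 intensity on every array for the 10 named probes, in nickel control, nickel high, cobalt control and cobalt high groups. Points are arrays (open for control, filled for high), the bar and whiskers are mean and SD (n = 4), and the dotted line is the background limit of log2 5. ENSDART00000091158_2 moves up with nickel and down with cobalt, and ENSDART00000019431_1 approaches the dotted line only in the cobalt high group.

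ENSDART00000079972_2 rose with both metals, steeply with cobalt and slightly with nickel. It read 8.59, 8.61, 8.38 and 8.55 in cobalt controls and 12.82, 12.66, 12.01 and 12.36 at high cobalt, a 15.2-fold rise. In nickel controls it read 7.88, 7.65, 7.62 and 8.22, and at high nickel 8.61, 8.74, 8.44 and 8.66, a 1.70-fold rise. Exposed and control arrays did not overlap in either series. The difference was 3.16 ± 0.22 log2 units (SE), limma adjusted p 1.37e-12. The chromium-labelled arrays of the nickel control pools read 9.52 ± 0.22 for this probe against 7.84 ± 0.28 on the nickel-labelled ones (SD, n = 4 each), and with them the difference was 4.84 ± 0.21 (SE). High nickel, at 8.61, lay below that level, so the direction of the small nickel effect depends on which arrays of the pools are used.

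Among differing probes that were the brighter of their transcript, the steepest rise with cobalt was that of ENSDART00000041257_1, from 11.01, 10.89, 10.99 and 11.25 to 15.38, 15.14, 15.17 and 15.06. Nickel raised it from 10.72, 10.52, 10.56 and 11.02 to 12.84, 12.59, 12.66 and 12.49. The control groups were close to each other, and the exposed groups were separated from them and from one another. The rise was 17.8-fold with cobalt and 3.83-fold with nickel, and the difference 2.21 ± 0.25 log2 units (SE, limma adjusted p 1.55e-07). The steepest fall with cobalt among such probes was at ENSDART00000082927_1, from 11.30, 11.08, 11.82 and 11.91 to 7.16, 7.25, 7.12 and 8.21. With nickel this probe went from 12.29, 12.58, 12.62 and 12.60 to 11.72, 11.81, 11.15 and 11.61. Both falls separated exposed from control arrays, at -4.09 ± 0.30 with cobalt and -0.95 ± 0.30 with nickel (log2, SE), and they differed by -3.14 ± 0.42 (SE, limma adjusted p 6.04e-06).

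Among differing probes that were the brighter of their transcript, the 2 that nickel raised most were raised by cobalt too, to a lesser extent. This holds for those 2 only: of the differing probes that rose with both metals, 69 rose further with cobalt and 13 further with nickel. ENSDART00000092082_2 went with nickel from 8.65, 8.19, 8.30 and 8.37 to 10.65, 10.66, 10.60 and 10.19. With cobalt it went from 8.18, 9.65, 8.50 and 8.13 to 9.48, 9.34, 10.02 and 9.75. Cobalt control replicate 2 stood above 2 of the exposed arrays, so the cobalt groups overlapped and the nickel groups did not. The effects were 2.15 ± 0.19 and 1.03 ± 0.19, and the difference -1.12 ± 0.27 (log2, SE, limma adjusted p 0.0169). Without that control replicate the difference was -0.77. This call was lost when only the 32 nickel and cobalt arrays were fitted (adjusted p 0.0545) and when only the 16 arrays were (0.204).

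ENSDART00000085763_2 went from 9.87, 9.97, 9.88 and 9.77 to 11.90, 12.06, 11.87 and 11.73 with nickel. Cobalt took it from 10.06, 9.64, 9.83 and 9.91 to 11.20, 10.93, 11.14 and 11.14. The controls of the 2 series were nearly level, and every nickel high array read above every cobalt high array. The difference of -0.78 ± 0.20 (log2, SE) passed narrowly, at a limma adjusted p of 0.0282, and was no longer called without any 1 of 5 arrays (cobalt high replicate 2, cobalt control replicates 1 and 4, nickel high replicate 2 and nickel control replicate 4), with adjusted p from 0.0552 to 0.0745.

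Larger rises were found on dimmer probes, which the naming rule leaves out, and 4 such probes were singled out after their values were seen. The steepest of all differing probes was ENSDART00000055287_1. It read 5.63, 5.56, 5.62 and 5.65 in cobalt controls and 12.20, 11.70, 11.58 and 11.88 at high cobalt, a 74.9-fold rise. With nickel it went from 5.67, 5.23, 5.43 and 5.58 to 9.87, 9.99, 9.60 and 9.91, a 20.6-fold rise. Both control groups lay just above the background limit, and every cobalt high array read above every nickel high array. The difference was 1.86 ± 0.29 log2 units (SE, limma adjusted p 6.71e-05). The brighter probe of this transcript rose by 4.93 with cobalt and 4.13 with nickel, and its difference of 0.80 was not called (limma adjusted p 0.4). The pair thus gave different calls for 1 transcript. At ENSDART00000015054_x_1 the effects were 5.35 with cobalt and 3.82 with nickel, with a difference of 1.53 ± 0.38 (log2, SE, limma adjusted p 0.0175). The brighter probe, at a mean of log2 14.89, had a difference of 0.01 (adjusted p 0.996). ENSDART00000076347_x_2 gave 3.99 and 2.98, a difference of 1.01 ± 0.29 (adjusted p 0.0487), against 0.52 on the brighter probe (adjusted p 0.365). ENSDART00000010079_2 was raised further by nickel, at 2.23 against 1.27 with cobalt, and its brighter probe differed as well (-0.95 and -0.90, limma adjusted p 0.041 and 0.0325). On ENSDART00000010079_2, cobalt control replicate 2 read 13.98, against 12.97, 12.98 and 13.04 on the other cobalt controls. The difference at this probe without that array was not examined.

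Under the naming rule, the 2 differing probes that nickel lowered most were lowered further by cobalt. ENSDART00000078711_1 went with nickel from 10.54, 10.88, 10.82 and 10.74 to 9.03, 8.80, 9.27 and 9.20, and with cobalt from 10.90, 10.95, 10.84 and 10.98 to 6.60, 6.92, 7.01 and 8.60. Cobalt high replicate 4 lay well above the other 3, though still below all nickel high arrays. The effects were -1.67 ± 0.34 and -3.64 ± 0.34 (log2, SE), and they differed by -1.97 ± 0.48 (SE, limma adjusted p 0.0162). Without cobalt high replicate 1 the adjusted p was 0.0568.

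ENSDART00000055068_1 went with nickel from 11.61, 11.28, 11.61 and 11.52 to 9.80, 9.85, 9.78 and 9.98. With cobalt it went from 10.63, 10.64, 10.77 and 11.04 to 7.63, 7.63, 7.18 and 6.67. The 4 groups did not overlap at all, the controls included. The fall was 3.14-fold with nickel and 11.3-fold with cobalt, and the difference was -1.84 ± 0.19 log2 units (SE, limma adjusted p 2.91e-08). At each of the 10 named transcripts the other probe was also called, with the same sign. The exposed deviations from control of the 2 metals did not overlap at any of the 10, as the naming rule required. This held at 984 of the 994 differing probes (99.0%), against 15.9% of all probes. The call of a difference is made from the same deviations, so the high share follows almost by construction and is no separate result.

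A difference of effects can lie in the exposed groups or in the controls they are measured from, and the baselines of the 2 series were themselves apart. Cobalt controls differed from nickel-labelled controls at 5326 probes (12.2%, 2780 higher and 2546 lower), and high cobalt from high nickel at 7344 (16.8%). The split between the controls stayed near even under quantile normalization (2743 higher, 2559 lower) and median centring (2744 and 2558). The deposited columns already have nearly the same distribution, so these scalings could hardly change the split and are no separate test of it. Scaled to the spike-in rows, the near-even split was lost. The median of all probes then moved by 2.25 log2 units in the comparison of controls. Of the probes called, 43635 were higher in cobalt controls and 4 lower. Series and control pools cannot be told apart in this gap. At 593 of the 994 differing probes, the exposed groups differed and the controls were not called. At 249 probes (25.1%) it was the reverse: controls differed and the exposed groups were not called. This kind made up 31.1% of the probes with the smaller value in cobalt, where controls were apart by a median of 0.76 log2 units (cobalt above nickel) and exposed groups by -0.15. It made up 19.4% of the probes with the larger value in cobalt, at medians of -0.75 and 0.12. At 69 probes the order of the series crossed over between control and exposure, as for ENSDART00000083532_2. At 64 probes both gaps ran the same way, as for ENSDART00000082927_1 with -0.996 ± 0.30 in controls and -4.14 ± 0.30 at high dose (log2, SE). Neither gap was called at 19. In all, the gap was wider between exposed groups at 700 probes and between controls at 294. The kinds of gap and the wider gap were counted among the 994 alone. Their shares over all probes were not computed, so these counts are not read as particular to the differing probes.

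**Figure D3:**
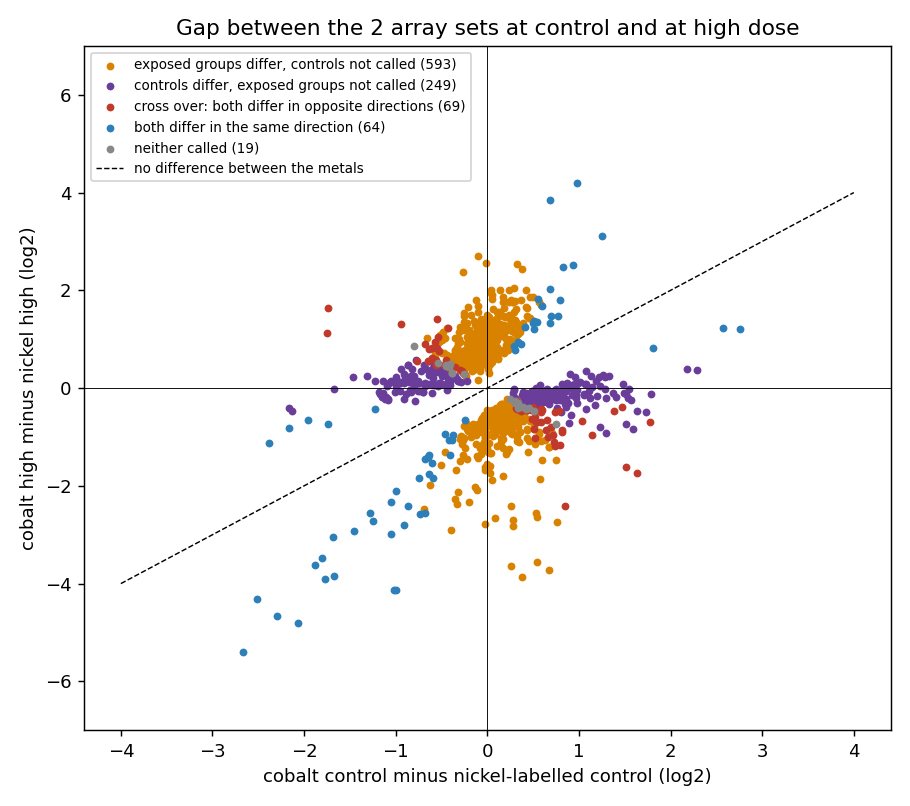
Gap between the exposed groups (cobalt high minus nickel high, vertical, log2) against the gap between the controls (cobalt control minus nickel-labelled control, horizontal, log2) for the 994 differing probes, each point a probe. Points far from the dashed line have a large difference of effects. The 249 purple points spread along the horizontal axis, and the 593 orange points along the vertical axis.

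The share of these calls that was also made with the chromium-labelled arrays of the control pools varied with the kind of gap. It was 78.4% where only the exposed groups differed, 67.5% where only the controls did and 91.3% where the order crossed over. By response, it was 79.7% for probes that rose with cobalt alone and 79.2% for those that fell with cobalt alone. It was 57.5% for probes that fell with nickel alone and 67.2% for those that rose with nickel alone. Of the 43 opposite responses, 19 of the 22 that rose with cobalt and 20 of the 21 that fell with it were called. The sets share their RNA pools and all exposed and cobalt arrays, so these shares describe the arrays and are no repeat. At 993 of the 994 probes the sign of the difference was the same with either set.

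The same contrast was made at the lower doses, with 39.7 mg/L cobalt against 42.4 mg/L nickel at the low dose and 46.3 against 51.0 mg/L at mid. At the low dose 614 probes differed (1.4% of those tested), of which 294 had the larger value in cobalt (0.673%) and 320 the smaller (0.732%). At mid 456 did (1.04%), 222 with the larger value (0.508%) and 234 with the smaller (0.535%). Scaled to the spike-in rows, 85 were larger and 124 smaller at low, and 47 and 168 at mid. With the chromium-labelled control arrays, 1615 differed at low and 1159 at mid. The 3 contrasts share their controls, so their values are set side by side only. The 515 probes with the larger value in cobalt at the high dose had a median difference of 0.53 at low, 0.64 at mid and 0.93 at high. Their median cobalt effect was 0.37, 0.51 and 0.82, and their median nickel effect -0.07, -0.06 and -0.10. For the 479 with the smaller value the median difference was -0.66, -0.71 and -0.95, with cobalt effects of -0.53, -0.62 and -0.84 and nickel effects of 0.09, 0.09 and 0.10. Over all probes the medians were 0.00 at each dose. These sets were picked by their high-dose values, which by itself raises the high-dose median in size. The lower doses are measured from the same controls, so the picking can also move their medians in the same direction. Their medians are therefore no independent repeat of the high-dose difference.

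Named probes differed in how their lower doses looked. ENSDART00000019431_1 had almost the same difference at every dose, -4.19 ± 0.37 at low, -4.08 ± 0.37 at mid and -4.39 ± 0.37 at high (log2, SE). Its low-dose cobalt arrays already read 7.01, 6.01, 6.05 and 6.21. The effects behind these values were not level: the cobalt effect was -3.11, -3.17 and -3.99 at the 3 doses, and the nickel effect 1.09 (limma adjusted p 0.00398), 0.91 (0.0233) and 0.41 (0.435), so that nickel raised the probe at the lower doses and was not called at high. ENSDART00000091158_2 likewise stood at -4.22, -5.00 and -4.25, with SE of 0.40. ENSDART00000079972_2 gave 2.57, 3.38 and 3.16, and ENSDART00000041257_1 gave 1.79, 2.58 and 2.21. By contrast ENSDART00000078711_1 gave -0.39 and -0.72 at low and mid, with adjusted p of 0.848 and 0.669, against -1.97 at high. ENSDART00000083532_2 gave 1.90, 2.40 and 3.38. Its cobalt effect was 0.18, 1.14 and 1.90 at the 3 doses and its nickel effect -1.73, -1.26 and -1.48. Whether the difference changed between doses was not tested.

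**Figure D4:**
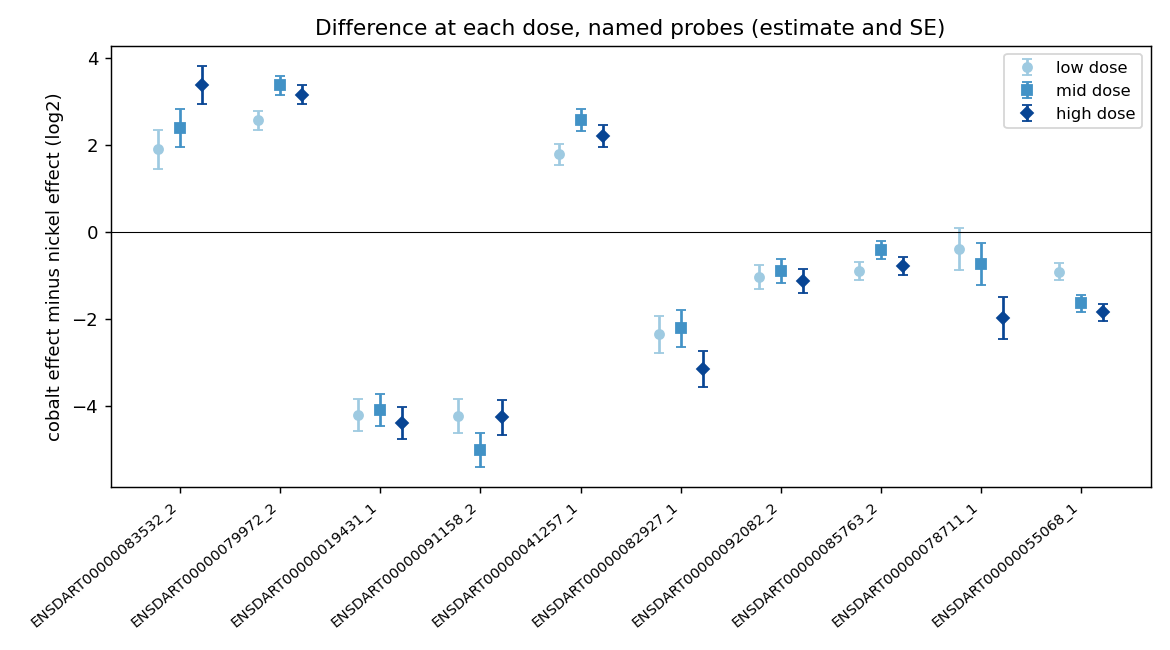
Cobalt effect minus nickel effect (vertical, log2) at the low, mid and high dose for the 10 named probes; points are estimates and whiskers SE. The differences of ENSDART00000019431_1 and ENSDART00000091158_2 lie below -4 at every dose, while that of ENSDART00000078711_1 is -0.39 at low and -1.97 at high.

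Changes are given relative to the deposited scaling. Scaled to the 6 spike-in rows, the median of all probes moved by 0.25 log2 units in the cobalt effect and by 0.21 in the nickel effect, and by 0.04 in their difference. The share of rises among calls then went from 51.1% to 86.0% for cobalt and from 55.7% to 91.0% for nickel, so the split into rises and falls with each metal rests on the scaling. The difference between the metals had 365 calls under that scaling, 198 higher and 167 lower, all among the 994. The spike-in level was lower at high cobalt than in its controls, by a difference of -0.25 (8.45 ± 0.07 against 8.69 ± 0.09, SD, n = 4 each, 2-sided exact permutation p 0.0286, the smallest this design allows, and 0.0571 after adjustment over the 2 metals). For nickel the difference was -0.21 (10.73 ± 0.12 against 10.94 ± 0.21, SD, n = 4 each, exact permutation p 0.114).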

How the data were processed

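The authors deposited a table of log2 intensity, with probes as rows and arrays as columns. Per the labels' protocols, pooled RNA of whole fish was labelled with Cy3; no source used here names the scanner, background correction, normalization or software. The range of the values gave the log2 scale, and the columns have nearly the same distribution (medians 5.63 to 5.66 on the 16 arrays), so no further normalization was applied. Groups came from the labels. The 61 control rows were left out, leaving 43714 probes (41681 ENSDART, 2033 OTTDART) of 21903 transcripts, and 0 could be given a gene symbol, so gene lists fixed for that case were not used.

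With R 4.3.3 and limma 3.58.1, lmFit and eBayes were run on all 48 arrays with a coefficient per group (36 residual degrees of freedom), and all contrasts came from this fit. The chromium-labelled controls are further arrays of the nickel control pools. This fit counts them as separate arrays, so its degrees of freedom overstate the number of independent pools. Benjamini-Hochberg adjustment ran over all 43714 probes, with a threshold of 0.05. The background limit of log2 5 held 98.7% of values of dark control rows at or below it. Spike-in rows are those with E1A_r60 in their names and a mean between log2 6 and 15.

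The members, lists and rules were chosen with earlier results of these data known. Named probes are the brighter probe of a transcript, with the cobalt and nickel high deviations from control not overlapping. They are the 2 largest in each direction for the difference, for the cobalt effect and for the nickel effect among differing probes, and the largest opposite response in each direction.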

Additional observations from a re-analysis of the deposited data

Results flagged for a closer look

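The cobalt and nickel high-dose effects differed by limma's test at all 10 named probes. The naming rule takes only probes that differ by this test, so that is no separate result. The differences (cobalt minus nickel, log2) were 3.38 for ENSDART00000083532_2, 3.16 for ENSDART00000079972_2 and 2.21 for ENSDART00000041257_1. They were -4.39 for ENSDART00000019431_1, -4.25 for ENSDART00000091158_2 and -3.14 for ENSDART00000082927_1. They were -1.97 for ENSDART00000078711_1, -1.84 for ENSDART00000055068_1, -1.12 for ENSDART00000092082_2 and -0.78 for ENSDART00000085763_2.

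Of 64 sets of 4 arrays examined, 7 held an array far from the other 3 by Dixon's criterion, which by chance marks about 1 in 20. At ENSDART00000082927_1 these were cobalt high replicate 4, at 8.21, and nickel control replicate 1, at 12.29. At ENSDART00000092082_2 it was nickel high replicate 4, at 10.19. Cobalt high replicate 1 had 52 probes at its ceiling, against 11 on the other cobalt arrays of these groups. Nickel high replicate 3 had a root mean square deviation of 0.278 from its group mean. Cobalt high replicate 2 had a spike-in mean of 8.54. Cobalt control replicate 2 stood at a median of -0.0915 from its group mean over the probes with the smaller value in cobalt.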

How the results depend on the processing

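The count of 994 probes stayed within 1.5 times its value under 27 of 31 alternatives, which include leaving out single arrays. A similar count does not mean the same probes. With the mean of both arrays of each shared pool as nickel controls, 1022 probes passed, of which 815 were among the 994. Fitting only the 32 nickel and cobalt arrays gave 797, of which 749 were among the 994. Fitting only the 16 arrays of the contrast gave 688, of which 604 were. Leaving out single arrays gave 700 to 1168 at the high dose, 341 to 567 at mid, 444 to 620 at low, 6517 to 7437 for cobalt, 3355 to 3840 for nickel and 4182 to 4583 for the controls. Spike-in scaling gave 365, 215 (21.9% with the larger value in cobalt, against 48.7%) and 209 differing probes at high, mid and low, moved the mid-dose median by -0.15 and called 43639 probes between the controls, 43635 of them higher in cobalt controls. Chromium-labelled control arrays gave 1657, 1159 and 1615. A limit of 1 log2 unit, which by construction removes smaller calls, left 433, 226 and 291, and 1370 for cobalt, 566 for nickel (68.9% rises, against 55.7%) and 661 for the controls. Averaged probes gave 5020 transcripts for cobalt, out of fewer features. Without the cobalt arrays with letters in their descriptions, 590 remained above threshold. Apart from averaged and limited sets, the causes were not tested. The difference kept its sign at all 10 named probes under each alternative run, and 7 of them, all but ENSDART00000092082_2, ENSDART00000085763_2 and ENSDART00000078711_1, kept their call throughout. The first also lost its call under spike-in scaling (adjusted p 0.0998), and the second under spike-in scaling (0.299) and without the lettered arrays (0.083).

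The labels do not say that replicate numbers pair arrays, so the numbers were not taken as pairs. Same-numbered high and control arrays correlated between -0.096 and 0.233 in their deviations. Arrays of different number were not compared, so this range cannot decide whether the numbers pair arrays. The replicate block was fitted on the 32 nickel and cobalt arrays only. Its high-dose count was 857, of which 758 were among the 994, against 797 on the same 32 arrays without the block. ENSDART00000092082_2 had a limma adjusted p of 0.0896 with the block and 0.0545 on these arrays without it.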
